A study of Homo sapiens with 6 samples.

Results

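The genes described here are 10 Wnt feedback targets, R-spondin receptors and TCF factors: AXIN2, ZNRF3, RNF43, NKD1, LGR4, LGR5, TCF7, LEF1, SP5 and TNFRSF19. They were taken by name, whatever their values, and each of the 10 matched 1 of the 58735 gene IDs in the deposited files through its GENCODE 29 name. Levels were compared in NCI-N87, a human gastric carcinoma cell line known for its amplified ERBB2 gene. By their labels, groups KO2 and KO1 are KRT17 knockout cells of that line and WT is the wild-type line, with 2 libraries of total RNA each. Whether the knockout libraries come from the same line as WT cannot be settled from these files, since ERBB2, whose values are given below, was nearly absent from them. The labels do not say whether KO1 and KO2 are clones or guides, whether any group is a pool, or whether replicates came from separate cultures. Each p-value below therefore rests on the spread of libraries within groups, and that spread may be purely technical. KRT17 encodes an intermediate filament keratin of stressed and stratified epithelia, and the series title sets it on one axis with YAP, IL6 and E-cadherin in diffuse gastric cancer.

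In canonical Wnt signalling, Wnt ligands engage Frizzled and LRP receptors at the cell surface, which stops the destruction complex from degrading beta-catenin. Stabilised beta-catenin enters the nucleus and binds TCF and LEF factors, whose DNA motif centres on CTTTG, and transcription of target genes starts. Several of those targets damp the signal again: AXIN2 and NKD1 act inside the cell, and the ubiquitin ligases ZNRF3 and RNF43 remove Frizzled from the membrane. LGR4 and LGR5 bind R-spondins, which take ZNRF3 and RNF43 off the surface. In mouse stomach and intestine, LGR5 marks stem cells at the gland base, and the pathway is known for maintaining them.

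The TCF and LEF motif was looked for as CTTTGA or CTTTGT, on both strands, in the 250 bases before each annotated start, because most of the genes moved together. These 2 motifs share their first 5 bases and cannot match at the same place on one strand. RefSeq promoters (GRCh38.p14) were matched for 6 of the 10 genes, RNF43, LGR4, TCF7, LEF1, SP5 and TNFRSF19, with 9 starts. One or more matches lay before 4 of these 9 starts, against 22.8% of all 35116 promoters of the table. SP5 had 4 matches, and 0.0570% of all promoters had 4 or more. The matches of SP5 began 157, 147, 109 and 83 bases before the start. RNF43 had 1 match before each of its 2 starts, and TCF7 had 2 before its second start and 0 before its first. LGR4, LEF1 and both TNFRSF19 starts had none in this window. A match only says that these letters are there, and whether matches go with levels was not tested. LEF1 and TNFRSF19, without a match, were lower in the knockouts, while LGR4, also without one, was higher. Printed below are promoters of SP5, RNF43 and TCF7, which show the matches, and that of LGR4. Capitals mark the motif, which reads TCAAAG or ACAAAG where it lies on the other strand. Each runs 5′ to 3′ on the gene's strand and ends at the base before the start: SP5 on the plus strand (chr2:170715087-170715336), the first start of RNF43 on the minus strand (chr17:58417535-58417784), the second start of TCF7 on the plus strand (chr5:134123368-134123617) and LGR4 on the minus strand (chr11:27472791-27473040).
SP5: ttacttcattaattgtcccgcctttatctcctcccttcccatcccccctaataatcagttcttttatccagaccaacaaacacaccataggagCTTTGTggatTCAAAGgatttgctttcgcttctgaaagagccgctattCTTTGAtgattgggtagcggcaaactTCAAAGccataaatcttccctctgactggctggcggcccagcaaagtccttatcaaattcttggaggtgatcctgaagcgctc
RNF43: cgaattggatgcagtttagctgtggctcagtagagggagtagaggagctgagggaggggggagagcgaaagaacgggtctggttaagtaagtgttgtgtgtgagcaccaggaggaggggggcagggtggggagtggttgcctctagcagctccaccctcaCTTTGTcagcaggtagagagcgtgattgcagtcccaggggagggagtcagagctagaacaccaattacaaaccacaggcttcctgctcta
TCF7: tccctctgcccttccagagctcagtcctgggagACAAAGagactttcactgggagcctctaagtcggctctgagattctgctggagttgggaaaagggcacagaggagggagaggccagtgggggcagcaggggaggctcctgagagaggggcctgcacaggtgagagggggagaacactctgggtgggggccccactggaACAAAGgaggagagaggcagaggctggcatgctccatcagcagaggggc
LGR4: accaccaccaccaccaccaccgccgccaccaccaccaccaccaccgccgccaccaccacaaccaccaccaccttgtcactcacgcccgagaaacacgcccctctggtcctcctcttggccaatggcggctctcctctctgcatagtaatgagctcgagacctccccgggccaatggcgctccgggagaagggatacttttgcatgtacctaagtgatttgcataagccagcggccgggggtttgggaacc

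Values are FPKM, which the authors computed and which correct for exon length and depth. Whole read numbers were recovered from them and are called reads below. Recovered depth was 17599759 to 22852340 reads per library, and 1 read in a gene with 1 kb of exons equals 0.0429 to 0.0544 FPKM. The total to which the FPKM were scaled was 1.03 to 1.05 times the recovered reads in the knockout libraries and 0.936 to 0.945 times in the WT libraries. Testing covered the 16046 genes that reached 1 FPKM in 2 libraries, with limma on log2(FPKM + 1), and called at a Benjamini-Hochberg adjusted p below 0.05. Differences marked log2 are on that scale and are given ± SE; for genes of low level they come out too small. A fold is a ratio of mean FPKM. In bulk RNA, fewer cells with a transcript and less of it per cell cannot be told apart.

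The knockout libraries stood far from WT in general. The targeted gene KRT17 was at 10.9 ± 0.660 FPKM in KO2, 2.35 ± 0.0823 in KO1 and 746 ± 10.1 in WT (SD, n = 2 each). The amplified receptor gene ERBB2, a hallmark of the line, was at 5.29 ± 0.0233 FPKM in KO2, 5.82 ± 0.360 in KO1 and 1387 ± 46.4 in WT. The sum of 6 epithelial markers (EPCAM, CDH1, KRT8, KRT18, KRT19, CLDN4) was 326 to 395 FPKM in the 4 knockout libraries and 3729 to 3834 in WT. Of these 6, EPCAM, KRT8, KRT18 and CLDN4 stayed at 1 FPKM or more in every knockout library, while CDH1 and KRT19 were below it in all 4. The sum of 8 gastric lineage markers was 83.7 to 93.2 FPKM in the knockouts and 9.11 to 10.1 in WT. Most of it was PSCA, the only one of the 8 at 1 FPKM or more in every library, which was 8.83-fold higher in the knockouts. The mucin gene MUC5AC was at 0.176 ± 0.000371 FPKM in KO2, 9.16 ± 0.537 in KO1 and 0.228 ± 0.000348 in WT (SD, n = 2 each), and CLDN18 was 19.6-fold higher in the knockouts but under 1 FPKM on average. Of 8 fibroblast markers 3 (COL1A1, DCN, LUM) did so in the knockouts and 0 in WT, with a summed level of 44.5 to 57.8 FPKM in the knockouts and 0.760 to 0.907 in WT. Of the other 5, PDGFRB had 537 reads in the 4 knockout libraries and 6 in WT, and COL3A1 had 184 in the knockouts and 2 in WT. PDGFRA had 0 reads in the knockouts, COL1A2 had 10 and THY1 had 4. Summed levels of 6 leukocyte markers were 1.15 to 2.16 FPKM in the knockouts and 0.985 to 1.16 in WT, with PTPRC at 0 or 1 read in the knockouts. Those of 6 endothelial markers were 0.668 to 0.746 FPKM in the knockouts and 0.377 to 0.443 in WT, with CDH5 making up most of the knockout sum (333 reads in the knockouts, 3 in WT) and KDR, TEK and EMCN at 0 reads in the knockouts. The part of these shifts in the results below was not tested.

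Of the 10 genes, 8 were lower in the knockouts than in WT (AXIN2, ZNRF3, RNF43, NKD1, TNFRSF19, SP5, TCF7 and LEF1), 1 was higher (LGR4), and LGR5 did not reach the level for testing. The same 8 and 1 genes were called in KO2 and in KO1 taken alone against the shared WT libraries. The background is high. For the knockout average 80.6% of tested genes were called, 40.1% lower and 40.5% higher, so a call says little by itself. In KO2 alone 39.8% were called lower and 39.1% higher, and in KO1 alone 38.6% lower and 39.3% higher. By size, all 9 tested genes were called with a difference of at least 1 log2 for the knockout average, against 14.6% of tested genes lower and 14.7% higher. The median log2 difference was -2.99 over the 9 tested genes and 0.02 over all 16046. All 4 knockout libraries lay below both WT libraries for those 8 genes, as for 40.0% of tested genes, and above them for LGR4, as for 39.9%. A gene that was high only in WT had to differ to pass the filter, so these counts describe the genes and are not support.

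**Figure D1:**
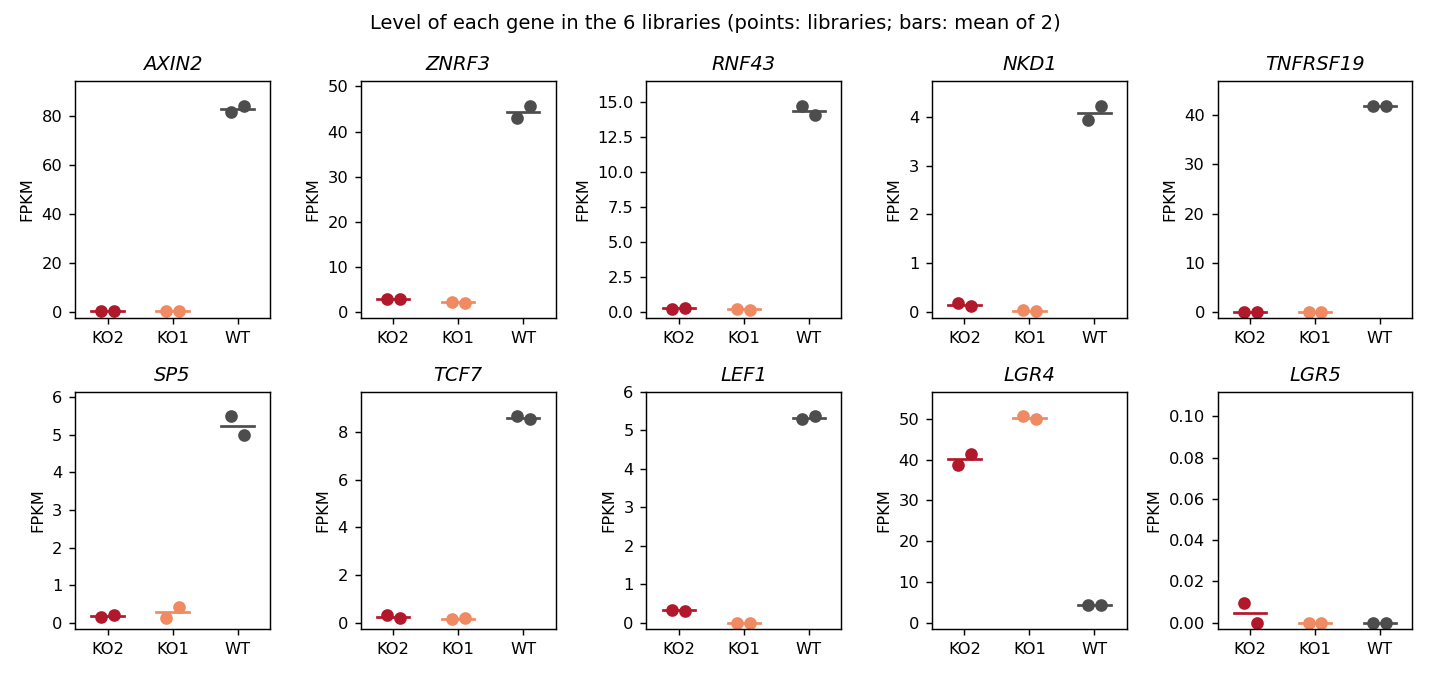
FPKM (vertical axis, from 0) of the 10 genes in the 2 libraries each of KO2, KO1 and WT; points are libraries and bars are means of 2. For 8 genes the WT points stand alone at the top, LGR4 has its knockout points at 38.8 to 50.6 FPKM over WT points at 4.30 and 4.37, and LGR5 has 1 read in 1 library.

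Among the intracellular feedback genes, AXIN2 was the most abundant of the 10 in WT and nearly absent from the knockouts. AXIN2 encodes a scaffold of the destruction complex and is among the most widely used readouts of beta-catenin activity (ENSG00000168646, GRCh38 chromosome 17, 65528563 to 65561647). It was at 0.547 and 0.350 FPKM in KO2, 0.336 and 0.253 in KO1, and 81.5 and 84.0 in WT. The knockout libraries did not come near WT and kept 0.449% of its level, 161 reads in 4 libraries against 17261 in 2. The difference was -5.94 ± 0.070 log2 (limma, Benjamini-Hochberg adjusted p = 2.45e-07), rank 22 from the lowest of 16046 tested genes. NKD1 encodes a Dishevelled-binding antagonist of the pathway (ENSG00000140807, chromosome 16, 50548330 to 50649249). It was at 0.176 and 0.117 FPKM in KO2, 0.0344 and 0.0278 in KO1, and 3.93 and 4.22 in WT. NKD1 was 45.9-fold lower in the knockouts (-2.22 ± 0.069 log2, limma adjusted p = 4.16e-06).

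The membrane ubiquitin ligases ZNRF3 and RNF43, paralogs with the same role, both fell, and ZNRF3 kept the higher level of the pair. ZNRF3 (ENSG00000183579, chromosome 22, 28883592 to 29057487) was at 2.97 and 2.91 FPKM in KO2, 2.14 and 2.11 in KO1, and 43.0 and 45.7 in WT. On average the knockouts kept 5.71% of WT, the largest remainder among the 8 lower genes. In KO1 alone SP5 kept more, 5.27% on 26 reads, against 4.79% for ZNRF3. The difference of ZNRF3 was -3.69 ± 0.038 log2 (limma adjusted p = 2.02e-07). RNF43 (ENSG00000108375, chromosome 17, 58352500 to 58417595) was at 0.251 and 0.266 FPKM in KO2, 0.228 and 0.152 in KO1, and 14.7 and 14.0 in WT. RNF43 was 64.1-fold lower (-3.65 ± 0.058 log2, limma adjusted p = 5.68e-07), with 140 reads in the 4 knockout libraries. The log2 differences of the pair are close because the added 1 FPKM compresses RNF43, while the folds were 17.5 for ZNRF3 and 64.1 for RNF43.

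TNFRSF19, also called TROY, is a TNF receptor family member and a Wnt target of mouse intestinal stem cells (ENSG00000127863, chromosome 13, 23570370 to 23676104). It had 0 reads in all 4 knockout libraries, and was at 41.9 FPKM in each WT library (4624 and 3936 reads). With 3 reads per library as the floor, it was at least 1490-fold lower in the knockouts. The fitted -5.42 ± 0.044 log2 (limma adjusted p = 1.20e-07) depends on the added 1 FPKM and is no bound. SP5, a zinc finger factor of the Sp family and a direct beta-catenin target whose promoter is printed above (ENSG00000204335, chromosome 2, 170715351 to 170718078), was at 0.149 and 0.209 FPKM in KO2, 0.125 and 0.427 in KO1, and 5.49 and 4.99 in WT. Its knockout levels rest on 6 to 20 reads per library, and the KO1 libraries spanned the KO2 libraries. SP5 was 23.0-fold lower (-2.35 ± 0.12 log2, limma adjusted p = 2.11e-05).

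TCF7 and LEF1, DNA-binding partners of beta-catenin that are themselves Wnt targets, were both lower. TCF7 (ENSG00000081059, chromosome 5, 134114711 to 134151865) was at 0.324 and 0.187 FPKM in KO2, 0.149 and 0.184 in KO1, and 8.65 and 8.54 in WT. It was 40.7-fold lower (-2.99 ± 0.070 log2, limma adjusted p = 1.77e-06), and the knockout groups nearly met at 0.187 and 0.184 FPKM. LEF1 (ENSG00000138795, chromosome 4, 108047545 to 108168956) was at 0.343 and 0.301 FPKM in KO2, at 0 reads in both KO1 libraries, and at 5.30 and 5.36 FPKM in WT. LEF1 thus had 66 reads in KO2, 0 in KO1 and 1142 in WT. It was 16.6-fold lower in KO2 and at least 219-fold lower in KO1, again with a floor of 3 reads per library. The knockout average was -2.46 ± 0.060 log2 (limma adjusted p = 1.98e-06), which the zeros of KO1 make dependent on the added 1 FPKM. TCF7L2, the other TCF gene that passed the filter, was at 1.42 ± 0.0544 FPKM in KO2, 1.42 ± 0.0103 in KO1 and 7.64 ± 0.174 in WT (SD, n = 2 each), 5.38-fold lower. TCF7L1, given after its values were seen, was at 0.370 and 0.451 FPKM in KO2, 0.369 and 0.319 in KO1, and 0.650 and 0.481 in WT, under the level for testing. TCF7L2 was therefore the TCF family gene with the highest level left in the knockouts, about the level at which genes entered the test.

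LGR4 was the one gene of the 10 that rose. LGR4 is the broadly expressed R-spondin receptor (ENSG00000205213, chromosome 11, 27365961 to 27472775), and it was at 38.8 and 41.5 FPKM in KO2, 50.6 and 50.0 in KO1, and 4.30 and 4.37 in WT. It was 9.26-fold higher in KO2 and 11.6-fold higher in KO1 than in WT. The average difference was 3.11 ± 0.034 log2 (limma adjusted p = 2.10e-07), rank 228 from the highest of 16046. Its paralog LGR5 (ENSG00000139292, chromosome 12, 71439770 to 71586310) had 1 read in KO2 replicate 1 and 0 in the other libraries. A level of 3 reads per library corresponds to 0.0300 FPKM in KO2, 0.0248 in KO1 and 0.0288 in WT, so LGR5 was not detectable in any group at this depth. The third R-spondin receptor, LGR6, was at 0.360 ± 0.0266 FPKM in KO2, 0.166 ± 0.0499 in KO1 and 12.5 ± 0.442 in WT (SD, n = 2 each), 47.4-fold lower.

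**Figure D2:**
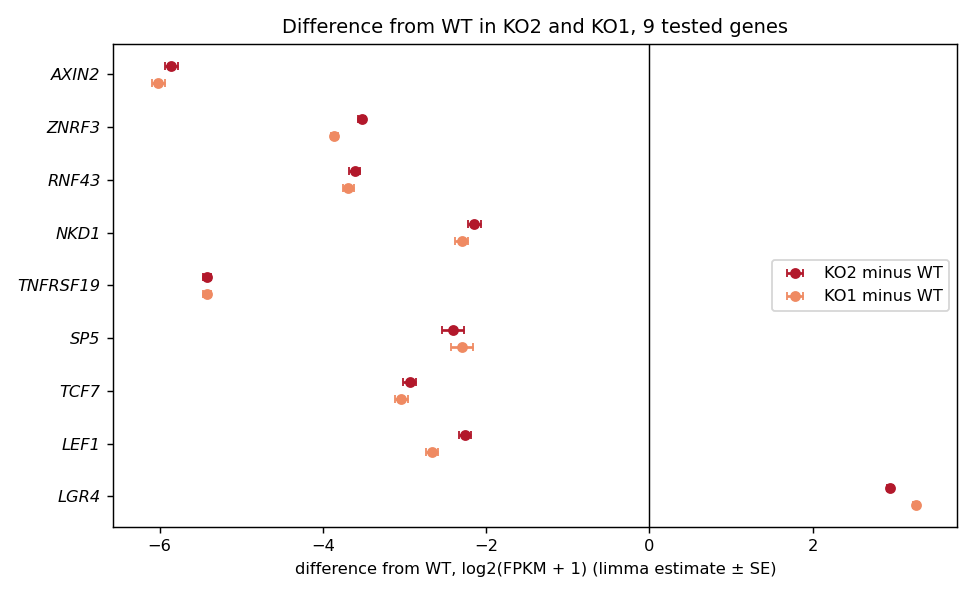
Difference from WT in KO2 and KO1 on the log2(FPKM + 1) scale (horizontal axis) for the 9 tested genes; points are limma estimates and bars are SE. AXIN2 and TNFRSF19 lie farthest to the left, LGR4 is the only one right of 0, and both knockouts share the same WT libraries.

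**Figure D3:**
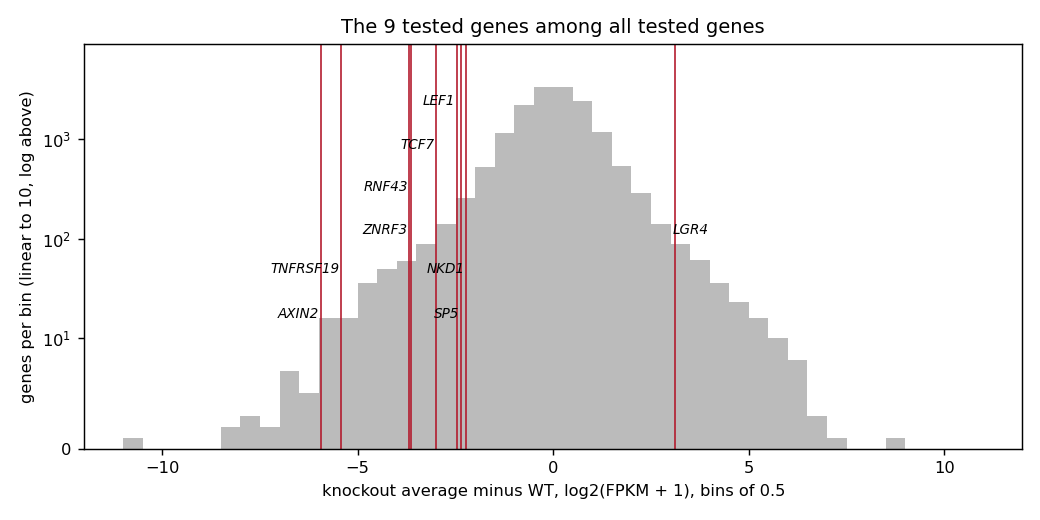
Knockout average minus WT for all 16046 tested genes in bins of 0.5 log2 (grey bars, vertical axis linear to 10 and log above) with the 9 tested genes as red lines. AXIN2 at -5.94 and TNFRSF19 at -5.42 lie in the thin left tail, and LGR4 at 3.11 in the right one.

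The order of the levels therefore differed between the groups. In WT it ran AXIN2 (82.7 ± 1.72 FPKM), ZNRF3 (44.4 ± 1.93), TNFRSF19 (41.9 ± 0.0188), RNF43 (14.4 ± 0.486), TCF7 (8.59 ± 0.0781), LEF1 (5.33 ± 0.0408), SP5 (5.24 ± 0.347), LGR4 (4.33 ± 0.0535), NKD1 (4.08 ± 0.205) and LGR5 at 0 reads (SD, n = 2 each). The WT libraries of LEF1 lay between those of SP5, so that neighbouring pair cannot be ordered, and the gaps between ZNRF3 and TNFRSF19 and between LGR4 and NKD1 were under 2 SD of ZNRF3 and of NKD1. In the 4 knockout libraries LGR4 stood first, at 40.1 ± 1.87 FPKM in KO2 and 50.3 ± 0.429 in KO1. ZNRF3 stood second, at 2.94 ± 0.0361 FPKM in KO2 and 2.12 ± 0.0227 in KO1 (SD, n = 2 each). The other 8 were at 0.547 FPKM or less in every knockout library. Over the 4 libraries together, the ranges of AXIN2, SP5, TCF7, RNF43 and LEF1 overlapped one another. Within groups they partly separated. In KO2 both libraries of AXIN2 (0.350 and 0.547 FPKM) lay above those of SP5, TCF7, RNF43 and LEF1. LEF1 was at 0.301 and 0.343 FPKM in KO2 but at 0 reads in KO1. NKD1 reached at most 0.176 FPKM, and TNFRSF19 and LGR5 stood at the bottom, in KO1 together with LEF1.

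The knockout groups differed from each other at 3 of the 9 tested genes, near the background of 26.2% called in that comparison (11.2% higher and 15.0% lower in KO2). In KO2 the level of ZNRF3 was 1.38 times that in KO1 (0.33 ± 0.044 log2, limma adjusted p = 0.00662). LGR4 was lower in KO2, at 0.798 times its KO1 level (-0.32 ± 0.039 log2, limma adjusted p = 0.00514). LEF1 was at least 13.2-fold higher in KO2 (0.40 ± 0.069 log2, limma adjusted p = 0.0142), but its call was lost without KO1 replicate 1 or 2 or KO2 replicate 1, at adjusted p of 0.0704, 0.0692 and 0.0585. NKD1, 4.71-fold higher in KO2 by mean FPKM (98 reads in KO2 and 25 in KO1), was not called (0.15 ± 0.080 log2, limma adjusted p = 0.230). It was called with an added 0.1 FPKM in place of 1 (0.90 log2, adjusted p = 0.0300). For AXIN2, RNF43, TCF7 and SP5 the difference missed the threshold (limma adjusted p of 0.218 to 0.632), and TNFRSF19 had 0 reads in both.

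**Figure D4:**
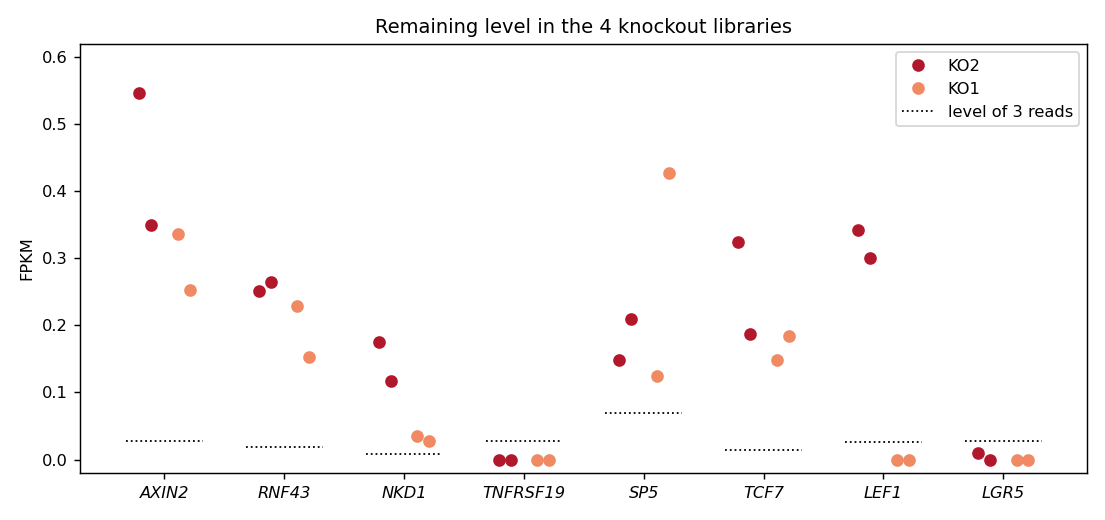
FPKM (vertical axis, linear) left in the 2 KO2 and 2 KO1 libraries for LGR5 and the 7 lower genes other than ZNRF3; points are libraries and dotted lines mark the mean level of 3 reads. LEF1 stands at 0.301 and 0.343 FPKM in KO2 and at 0 in KO1, NKD1 is higher in both KO2 libraries, and TNFRSF19 is at 0 in all 4.

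Other Wnt pathway genes were grouped in 6 lists by role. Of 71 genes 49 were tested, and 31 were lower, 13 higher and 5 not called for the knockout average, with a median of -0.64 log2 against 0.02 over all tested genes. The counts below stand against the 40.1% of all tested genes called lower and 40.5% called higher. Of 16 destruction complex and Dishevelled genes 10 were lower, 5 higher and 1 not called, with a median of -0.50 log2. CTNNB1, the beta-catenin gene, named after its values were seen, was at 22.8 ± 0.0663 FPKM in KO2, 23.0 ± 0.0514 in KO1 and 19.6 ± 0.200 in WT (SD, n = 2 each). It was slightly higher (0.22 ± 0.022 log2, limma adjusted p = 3.50e-04), a call that ended against a minimum fold of 1.5. Of the Dishevelled genes, DVL3 and DVL1 were 2.74-fold and 2.43-fold lower, while DVL2 was 1.56-fold higher (0.58 ± 0.035 log2, limma adjusted p = 4.80e-05). APC2, a paralog of the scaffold gene APC, was 8.46-fold higher; DVL2 and APC2 are named after their values were seen. The kinase genes GSK3A and CSNK1A1 were 2.09-fold and 2.03-fold lower.

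At the cell surface, 5 of 8 receptors and co-receptors were lower, 2 higher and 1 not called. ROR1, a receptor of non-canonical Wnt ligands, was at 0.0428 ± 0.00387 FPKM in KO2, 0.0513 ± 0.0448 in KO1 and 12.5 ± 0.196 in WT (SD, n = 2 each). Its paralog ROR2 moved the other way, at 6.99 ± 0.211 FPKM in KO2, 5.67 ± 0.0300 in KO1 and 0.433 ± 0.0494 in WT (SD, n = 2 each). The pair thus changed places, ROR1 266-fold lower and ROR2 14.6-fold higher. PTK7, another Wnt co-receptor gene, was 4.24-fold lower, and the co-receptor gene LRP5 was not called (0.00 ± 0.040 log2, limma adjusted p = 0.989). Of 4 R-spondin genes only RSPO3 was tested; it had 263 reads in the 4 knockout libraries and 0 in WT and was at least 20.2-fold higher (0.96 ± 0.078 log2, no bound, limma adjusted p = 1.45e-04).

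Of 13 extracellular antagonists 4 were tested, 3 lower and 1 higher. NOTUM, which strips the lipid from Wnt ligands, was 6.77-fold lower, and KREMEN1, a Dickkopf receptor, 11.3-fold lower. DKK1, a secreted inhibitor of LRP receptors, was 1.44-fold lower (-0.48 ± 0.054 log2, limma adjusted p = 5.62e-04), a call lost against a minimum fold of 1.5. KREMEN2 was barely past the threshold (0.26 ± 0.090 log2, limma adjusted p = 0.0401). It lost the call without KO1 replicate 2, KO2 replicate 1 or either WT library (adjusted p of 0.0835, 0.0761, 0.233 and 0.120).

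Among 12 tested nuclear partners of beta-catenin, 6 were lower, 3 higher and 3 not called. The corepressor gene TLE1 was 2.85-fold lower. PYGO1 and PYGO2, which encode adaptors of the beta-catenin complex, were 17.5-fold and 1.93-fold higher. Among 8 tested genes of other feedback and known targets, 7 were lower and 1 higher. BAMBI, a decoy receptor of TGF-beta signalling and a beta-catenin target, was at 7.59 ± 0.894 FPKM in KO2, 7.12 ± 0.148 in KO1 and 149 ± 4.77 in WT (SD, n = 2 each), 20.3-fold lower. EPHB3, an ephrin receptor gene of intestinal crypts, was 126-fold lower, a rough value resting on 17 reads in the 4 knockout libraries. In KO1 it had 3 reads in all, a mean under the floor of 3 reads per library. CCND1, the cyclin D1 gene, was 1.96-fold lower. CD44, an adhesion receptor gene and Wnt target, went against them and was 3.83-fold higher.

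**Figure D5:**
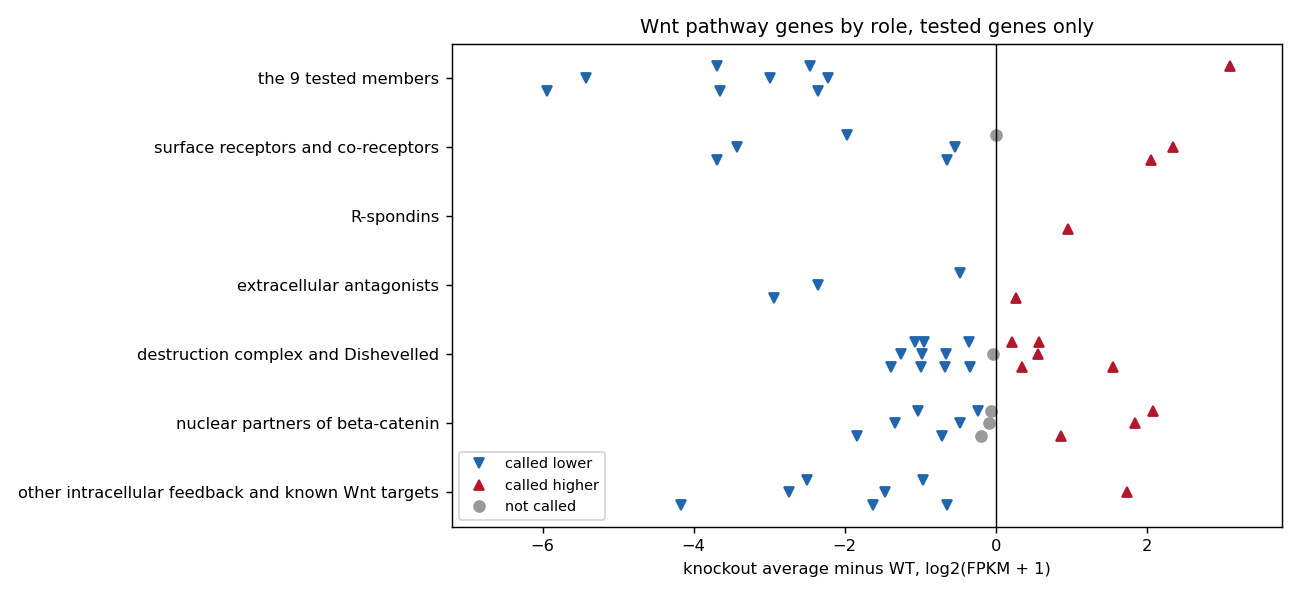
Knockout average minus WT on the log2(FPKM + 1) scale (horizontal axis) for the 9 tested genes and for the tested genes of 6 other Wnt lists (rows); triangles mark called genes and circles genes not called, and vertical scatter within a row only separates points. The 9 genes in the top row have a median of -2.99, against -1.54 for other feedback and known targets, -1.41 for antagonists, -0.59 for receptors, -0.50 for the destruction complex and Dishevelled and -0.21 for nuclear partners; the R-spondin row is 1 gene.

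For each of the 10, the median over tested protein-coding neighbours at most 1 Mb away was taken, and these medians ranged from -0.86 log2 (4 genes around TNFRSF19) to 1.06 (5 genes around LGR4), against -0.05 over 11882 tested protein-coding genes. Of those 11882 genes 40.5% were called higher and 45.8% lower. All 5 tested neighbours of LGR4 were called higher, at 0.69 to 1.64 log2, and LGR4 itself was at 3.11. Around AXIN2 the 4 neighbours had a median of 0.25 log2, 3 of them called higher. KREMEN1 was the lowest of the 20 tested neighbours of ZNRF3, at -2.94 log2, so these 2 pathway genes lie within 1 Mb of each other.

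Some exons are shared with other annotated genes, and the sources used here do not state how reads in such exons were assigned. RNF43 shares 57.6% of its exon bases with AC004687.2 on the same strand, and that gene held 3 to 7 reads in each library. SUPT4H1, a transcription elongation factor gene that also touches RNF43, was listed at 0 to 4 reads in each library. AXIN2 shares 25.2% of its exon bases with AC004805.1, which had 0 reads in the knockouts and 17 and 9 in WT. On the opposite strand TSPOAP1-AS1 overlaps RNF43, with 3 to 8 reads in each knockout library and 52 and 58 in the WT libraries. LEF1-AS1 overlaps LEF1 and had 1 to 5 reads in each library. TCF7 overlaps SKP1 by 210 bases, and SKP1 was at 13.6 to 15.1 FPKM in all 6 libraries. NKD1 and LGR5 overlap AC007608.1 and AC078860.1, with 0 to 8 and 0 to 2 reads per library. Without a stated strand setting, reads of such antisense pairs cannot be told apart. The absolute levels of RNF43, LEF1, TCF7, NKD1 and LGR5 are uncertain to that extent. Same-strand overlaps leave those of RNF43 and AXIN2 uncertain as well, with the larger shared part in RNF43.

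Genes with the nearest pattern were taken by Euclidean distance of log2(FPKM + 1) over the 6 libraries among 19950 other protein-coding genes. Nearest to AXIN2, the highest of the 10 in WT, were SPINT2 (distance 0.646), KLK14 (0.732) and CDH1 (0.746). CDH1, the E-cadherin gene, was at 0.494 ± 0.103 FPKM in KO2, 0.155 ± 0.00284 in KO1 and 59.6 ± 1.49 in WT (SD, n = 2 each). Nearest to LGR4, the highest in the knockouts, were RDX (distance 0.176), RAB31 (0.454) and AQP3 (0.494). RDX was at 39.9 ± 1.63 FPKM in KO2, 52.1 ± 0.178 in KO1 and 4.77 ± 0.00435 in WT (SD, n = 2 each). These distances describe 6 libraries in 3 groups only.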

How the data were processed

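Total RNA of 6 libraries, all NCI-N87 by their labels, was measured; whether the 4 knockout libraries are the same line as WT was not settled. The deposited files hold FPKM values that the authors computed for 58735 Ensembl gene IDs, per the file headers. The submitters' processing notes name featureCounts 1.5.0-p3, HISAT2 2.0.5 and the build hg38; the steps each tool served, strand handling and annotation are not stated there. GENCODE 29 (GRCh38) supplied names, coordinates and union exon lengths for all IDs. FPKM times exon length was a whole multiple of 1 step per library for 100% of values above 0 (tolerance 0.1 of a step), which gave read numbers.

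Groups were taken from the titles. Replicate pairs differed by a chi-square of 2.49 (KO2), 1.83 (KO1) and 2.58 (WT) per degree of freedom, above counting error. That does not show whether replicates came from separate cultures. Each library was taken as 1 replicate. limma 3.58.1 in R 4.3.3 was fitted to log2(FPKM + 1) of genes that reached 1 FPKM in 2 libraries (3 group means, mean-variance trend, no covariate), with Benjamini-Hochberg adjustment over all 16046 genes. A group with 0 reads in all libraries was set to 3 reads per library for folds, written "at least"; such floors cover counting error only. On simulated libraries with 200 changed genes among 13954 tested, the script called 193 of the changed genes and 23 unchanged ones. The changed genes all averaged more than 200 reads in WT, and the spread was set in advance. Most genes were left unchanged there, unlike in these data. That run only checks the script and does not give the recovery or error rate here.

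The genes, lists and tests were chosen with earlier results of these data known. Genes named beside the 10 are KRT17, ERBB2, CDH1, up to 4 per other Wnt list with the smallest adjusted p, and the 3 nearest patterns of 2 genes; others are marked. The planned count tests were not run, since the files hold FPKM; limma's voom on the recovered reads, chosen after seeing the data, took their place.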

Additional observations from a re-analysis of the deposited data

Results flagged for a closer look

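KO2 and KO1 differed from each other at 3 of the 9 tested genes, which means that their differences from the shared WT libraries were unequal. On the log2(FPKM + 1) scale KO2 minus KO1 was 0.33 for ZNRF3 (limma, Benjamini-Hochberg adjusted p = 0.00662). For LGR4 it was -0.32 (limma adjusted p = 0.00514). For LEF1 it was 0.40 (adjusted p = 0.0142), with 66 reads in KO2 and 0 in KO1. ZNRF3 and LEF1 were nearer to WT in KO2, and so was LGR4 from the other side. In that comparison 26.2% of all tested genes were called. Groups of 2 libraries are too small for a check of single libraries that stand apart.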

How the results depend on the processing

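For the knockout average, KO2 minus WT and KO1 minus WT, the 9 tested genes kept their direction and their call in every alternative run that tested them, among them another pseudocount, other filters and scalings, each replicate left out, a minimum fold of 1.5 and voom. NKD1 and SP5 were not tested under a filter at 5 FPKM. With the replicate number as a block, the counts were again 8 lower and 1 higher in each comparison with WT, and 2 higher and 1 lower in KO2 minus KO1. Deviations of same-numbered libraries correlated at -0.0383, 0.0191 and -0.00406 between groups, so no shared deviation was seen. With 1 difference per group, that cannot show whether same-numbered libraries were handled together. Among the other named genes, the block ended the call of KREMEN2 (adjusted p = 0.0661), as did no filter (0.0794) and one knockout group of 4 (0.189); over all settings its adjusted p ran from 6.47e-04 to 1.

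Calls between KO2 and KO1 were less stable. The count of genes higher in KO2, 2 as reported, was 1 without a filter and ranged from 1 to 2 when each replicate was left out, in each case through LEF1 (adjusted p = 0.0597 without a filter, 1.08e-05 to 1 over all settings). Against a minimum fold of 1.5 it was 0, and the count lower was 0. SP5 in KO2 minus KO1, at -0.10 log2 and not called, ranged from -0.276 to 0.067 log2 when each replicate was left out, and turned positive without KO1 replicate 2 (adjusted p = 0.739, 0.183 to 1 over all settings). NKD1 was called higher in KO2 with voom (2.21 log2, adjusted p = 4.25e-04, up to 1 over all settings). Voom moved the median of all genes by 0.148 log2. Depth limits every gene under about 1 FPKM in the knockouts.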
